A study of Mus musculus with 13 samples.

Results

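Endocytosis and lysosome genes were examined here as a set of 32, chosen by gene symbol for what their proteins do. The choice was made with earlier results of these data known. The members are 32 of the 48709 mouse genes with counts in the data, and 31 of them were among the 16328 genes with enough counts to test. By role they comprise 6 genes of the clathrin coat and its scission, 3 Rab GTPases, 3 receptors of the LRP group, 4 lysosomal membrane proteins, 7 cathepsins, 3 other lysosomal hydrolases, 2 lipid carriers, 3 ion channels or exchangers and 1 transcription factor.

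Transcripts were counted by bulk RNA-seq in enamel organs, the epithelium that builds tooth enamel, taken from the mandibular incisors of mice on postnatal day 11. The 5 Het libraries carry 1 copy of the Tgfbr2 allele with the substitution G357W and 1 normal copy, and the 8 WT libraries come from littermates with both copies normal. Tgfbr2 encodes the type II receptor for TGF-β, and all groups share the same age and tissue, with no drug or Cre driver named in the labels. Library totals ran between 20266079 and 26122340 counts in Het and between 18852382 and 26508410 counts in WT. The labels name whole mice and do not say whether the incisors of a mouse were pooled, so the p-values measure the spread between these libraries. Libraries are named by genotype and a number pair, and the number before the hyphen (1, 4 or 5, called the library prefix) has no stated meaning.

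Ameloblasts, the cells that lay down enamel, first secrete enamel matrix proteins and later, in the maturation stage, take the cleaved matrix back while mineral replaces it. In endocytosis, clathrin and its AP2 adaptor shape a coated pit around cargo bound to a receptor, dynamin cuts the vesicle free, and Rab5 and then Rab7 mark the early and late endosome on the way to the lysosome. There, acid hydrolases digest the cargo, chloride and calcium channels keep up the ion balance, and the transcription factor TFEB binds a short element in the promoters of many lysosomal genes.

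That element is written CACGTG, or in the longer form GTCACGTG, whose other-strand reading is CACGTGAC. The longer form contains the shorter one, and CACGTG reads the same on both strands. Promoter windows of 250 bases before to 50 bases after the gene start, from RefSeq on build GRCm38.p6, were found for 28 of the 32 genes; Ctsb, Ctsh, Lrp6 and Npc1 had no entry. Ctsa, Rab7, Clcn5 and Clcn7 had 2 windows each and Tfeb had 3, and the shares given are of genes. The 8-base form was held by 7 of the 28 genes (25%), Ctsa, Ctsd, Mcoln1, Lamp1, Rab21, Clcn7 and Rab5a. It was held by 2.55% of all 27025 genes with a window and by 4.48% of such genes tested here. Ctsl held the 6-base form alone, which made 8 of 28 (28.6%), against 8.09% of all genes with a window and 11.2% of those tested. Among the lysosomal genes 5 of 16 held the 8-base form (31.2%), and among the endocytic genes 2 of 11 did (18.2%). Among the other genes of these pathways, 8 of 29 lysosomal hydrolase genes held it (27.6%), 4 of 24 lysosomal membrane and transport genes (16.7%), 2 of 13 endocytic receptor genes (15.4%), 4 of 27 sorting and TFEB family genes (14.8%), 3 of 35 endosomal Rab and sorting genes (8.57%) and 1 of 24 clathrin coat genes (4.17%). Stretches of 4 of these promoters, of 2 lysosomal and 2 endosomal genes, are shown. In these 4 the 8-base element nearest to the RefSeq start lies outside the annotated gene. In Ctsa, Ctsd and Mcoln1 that element lies inside it. The 6-base element of Ctsl lies inside its annotated gene too. The element is in capitals, and each stretch is read 5′ to 3′ on the strand of its gene.
Lamp1, chr8:13159078-13159160, + strand: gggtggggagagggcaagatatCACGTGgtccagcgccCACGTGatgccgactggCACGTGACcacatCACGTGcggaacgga
Clcn7, chr17:25133352-25133390, + strand: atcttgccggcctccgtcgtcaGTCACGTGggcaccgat
Rab5a, chr17:53479115-53479166, + strand: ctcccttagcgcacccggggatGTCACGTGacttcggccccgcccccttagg
Rab21, chr10:115315594-115315645, − strand: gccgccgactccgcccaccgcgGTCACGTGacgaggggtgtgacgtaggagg

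Lamp1 carried 4 copies of CACGTG within the stretch shown, starting between 61 and 15 bases before the gene start, and 1 of them extended to the 8-base form. The 8-base element of Clcn7 started 17 bases, that of Rab21 32 bases and that of Rab5a 97 bases before the gene start. Rab5a had a second 8-base copy 235 bases before its gene start. In the stretches shown of Rab5a and Rab21 the letters ac follow GTCACGTG, so CACGTGAC overlaps it there and was not counted as a further copy. Clcn7 also held a 6-base copy starting 7 bases after its gene start, inside the annotated gene and beyond the stretch shown. The stretches of Lamp1, Clcn7 and Rab5a lie wholly upstream of the annotated genes on GRCm38, and that of Rab21 shares 1 base with its gene. These are matches of letters in a fixed window, with no measurement of binding.

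**Figure D1:**
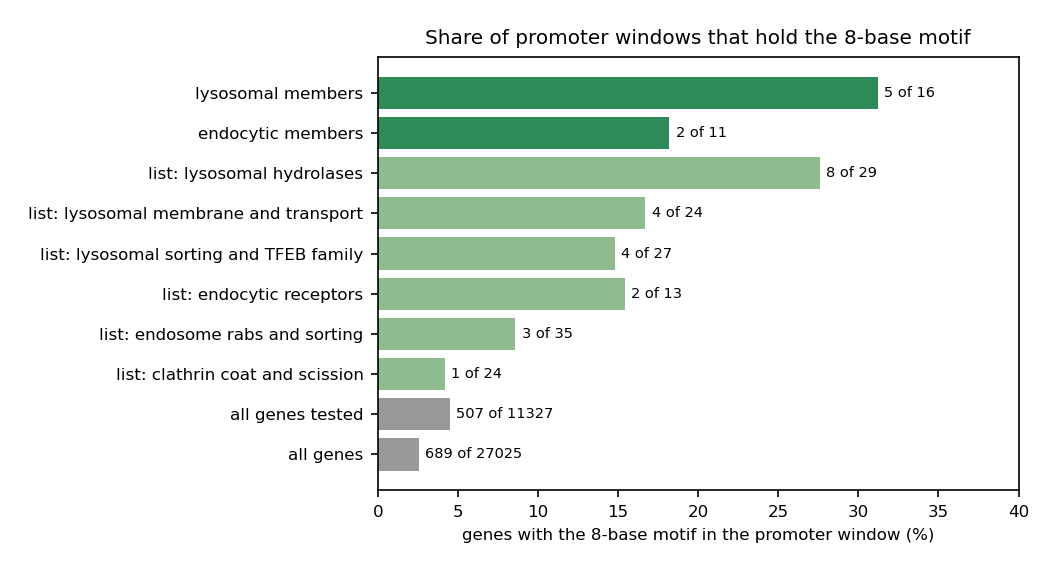
Share of genes, out of those with a RefSeq promoter window, that hold the 8-base element on either strand (x axis, %). Bars, with their counts beside them, are for the lysosomal and endocytic genes of the set, 6 lists of other pathway genes, all genes tested and all genes. The lysosomal genes of the set stand at 5 of 16 and the lysosomal hydrolase list at 8 of 29, against 507 of 11327 genes tested and 689 of 27025 genes in all.

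Between Het and WT, 0 of the 31 tested members changed past an adjusted p of 0.05 in edgeR's quasi-likelihood test with Benjamini-Hochberg adjustment over all genes, where 0.0857% of all genes did. DESeq2 and limma-voom also called 0 of the 31. An unadjusted p under 0.05 in edgeR's test was found for 1 of the 31, the clathrin heavy chain gene Cltc, against 6.9% of all genes. The Het and WT ranges overlapped for all 31 members, while 0.49% of all genes had ranges apart. Log2 fold changes, Het over WT, were positive for 16 members and negative for 15, where 50.9% of all genes were negative. Their median was 0.0056 over members and −0.0044 over all genes.

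**Figure D2:**
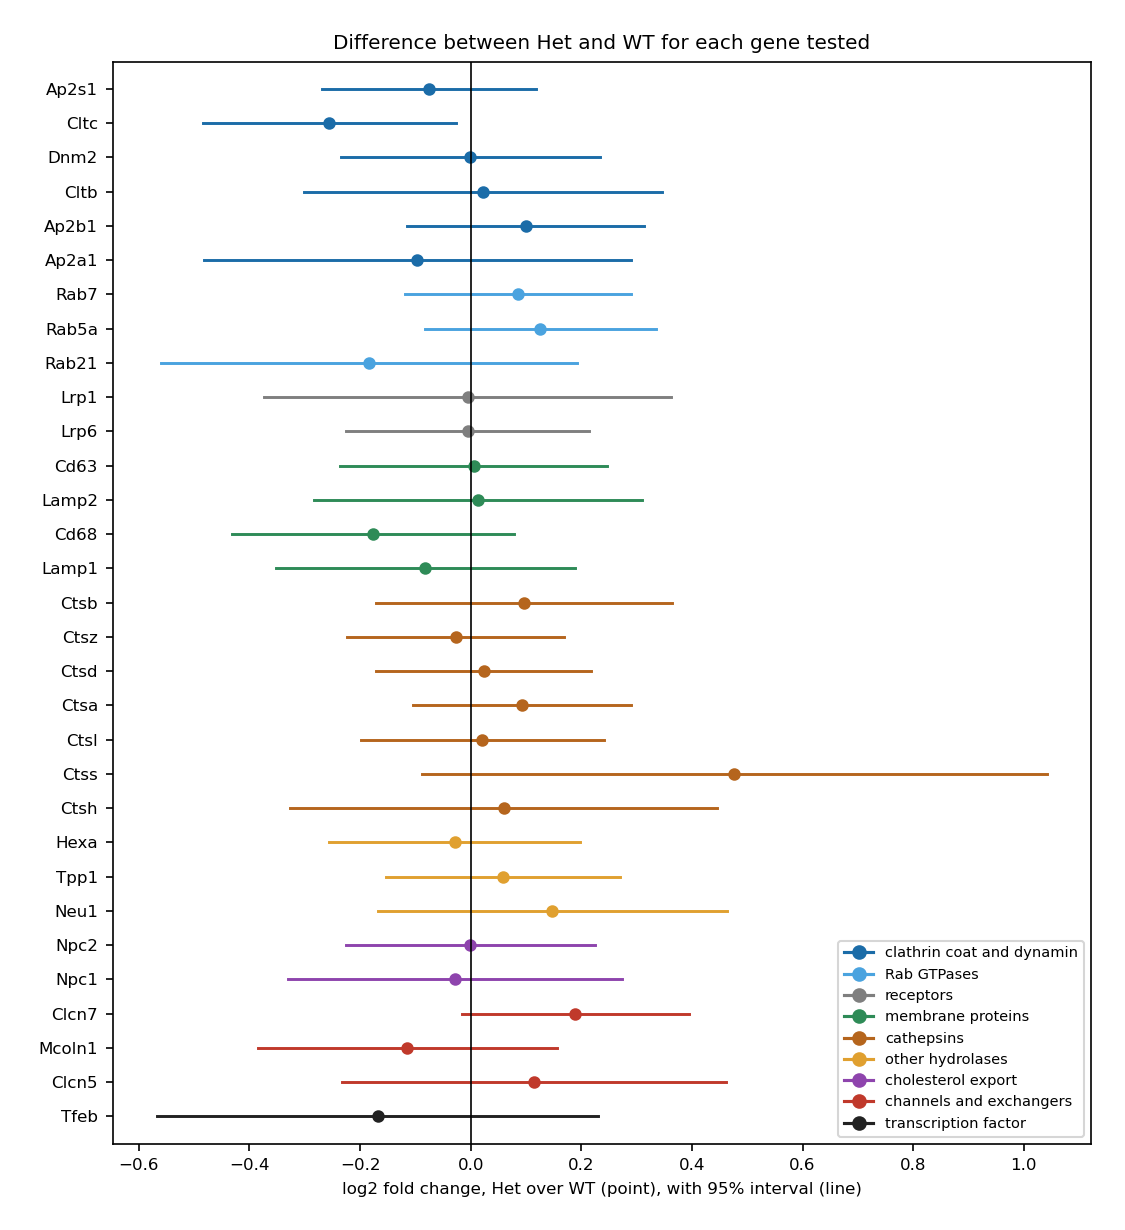
Log2 fold change, Het over WT (point), with its 95% interval (line), for each of the 31 tested genes, coloured by role. The interval of Cltc, −0.48 to −0.03, is the one of the 31 that leaves out 0, and that of Ctss reaches 1.04.

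Among the coat genes, Cltc, which encodes the clathrin heavy chain (ENSMUSG00000047126, chr11:86694351-86757565, − strand, 33 merged exons), had 132, 141, 139, 119 and 129 CPM, read counts scaled to a common library size with TMM factors, in Het libraries 1-2, 4-2, 4-5, 5-5 and 5-6, the order kept for every gene that follows. WT libraries had a lowest value of 129 CPM, a median of 155 CPM and a highest value of 205 CPM. Het 5-5 and Het 5-6 lay below every WT library and the other 3 Het libraries fell inside the lower part of the WT range. The log2 fold change was −0.26 ± 0.11 (SE; 5 Het and 8 WT libraries), with an adjusted p of 0.675 in edgeR's quasi-likelihood test. Within prefixes 1, 4 and 5 the differences in mean log2 CPM, Het minus WT, were −0.08, −0.34 and −0.30.

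Ap2s1, the small subunit of the AP2 adaptor, had 39.8, 40.04, 48.5, 38.0 and 45.6 CPM in Het libraries, against a lowest of 40.3, a median of 44.2 and a highest of 51.0 CPM in WT libraries. Het 1-2, 4-2 and 5-5 lay just under the WT range and the other 2 inside it. Its log2 fold change was −0.08 ± 0.09 (SE), and its adjusted p was 0.892 (edgeR). The adaptor subunit genes Ap2b1 (0.10 ± 0.10) and Ap2a1 (−0.10 ± 0.18), the light chain gene Cltb (0.02 ± 0.15) and the dynamin gene Dnm2 (−0.00 ± 0.11) had log2 fold changes within 1 SE of 0. Ap2a1 shares 16.7% of its exon bases with Fuz on the other strand, and since the libraries do not keep strand, reads there cannot be told apart.

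Of the Rab GTPases, Rab7, which acts on late endosomes, had 228, 198, 235, 204 and 235 CPM in Het libraries, against a lowest of 175, a median of 214 and a highest of 228 CPM in WT libraries. Het 4-5 and 5-6 passed the highest WT library, and Het 1-2 stood level with it to 3 digits. Rab5a, the early endosome GTPase whose promoter stretch is given above, had 47.9, 40.5, 41.9, 44.1 and 53.6 CPM in Het libraries, against 35.2, 41.3 and 47.9 CPM as the lowest, median and highest of WT. Het 5-6 alone lay above the WT range. Log2 fold changes were 0.09 ± 0.10 for Rab7 and 0.13 ± 0.10 for Rab5a (SE), with edgeR adjusted p-values of 0.887 and 0.831. Rab21, an endosomal GTPase that also has the promoter element, had the widest interval of the 3, with a log2 fold change of −0.18 ± 0.18.

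Of the receptors, Lrp1, which binds many extracellular ligands and carries them in, had 74.0, 113, 104, 65.3 and 63.9 CPM in Het libraries, against a lowest of 60.9, a median of 83.8 and a highest of 125 CPM in WT libraries. Its Het values lay wholly within the WT range. Lrp6, known chiefly as a Wnt co-receptor, had 37.2, 39.03, 35.7, 29.2 and 31.6 CPM in Het libraries, against 29.8, 34.7 and 41.7 CPM in WT. Het 5-5 sat just under the lowest WT library and the rest overlapped. Both log2 fold changes were −0.01, with SEs of 0.18 for Lrp1 and 0.10 for Lrp6 and edgeR adjusted p-values of 0.997 and 0.995.

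Lrp2, which encodes megalin, the scavenging receptor of absorptive epithelia such as the kidney tubule (ENSMUSG00000027070, chromosome 2), was the member left untested. It drew 2 counts over 2 of the 5 Het libraries and 3 counts over 2 of the 8 WT libraries, and none of the libraries had more than 2. A floor of 3 counts corresponds to between 0.106 and 0.162 CPM per library, a limit that covers counting error alone. Both groups lay at or under that floor per library, so no fold change is given.

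**Figure D3:**
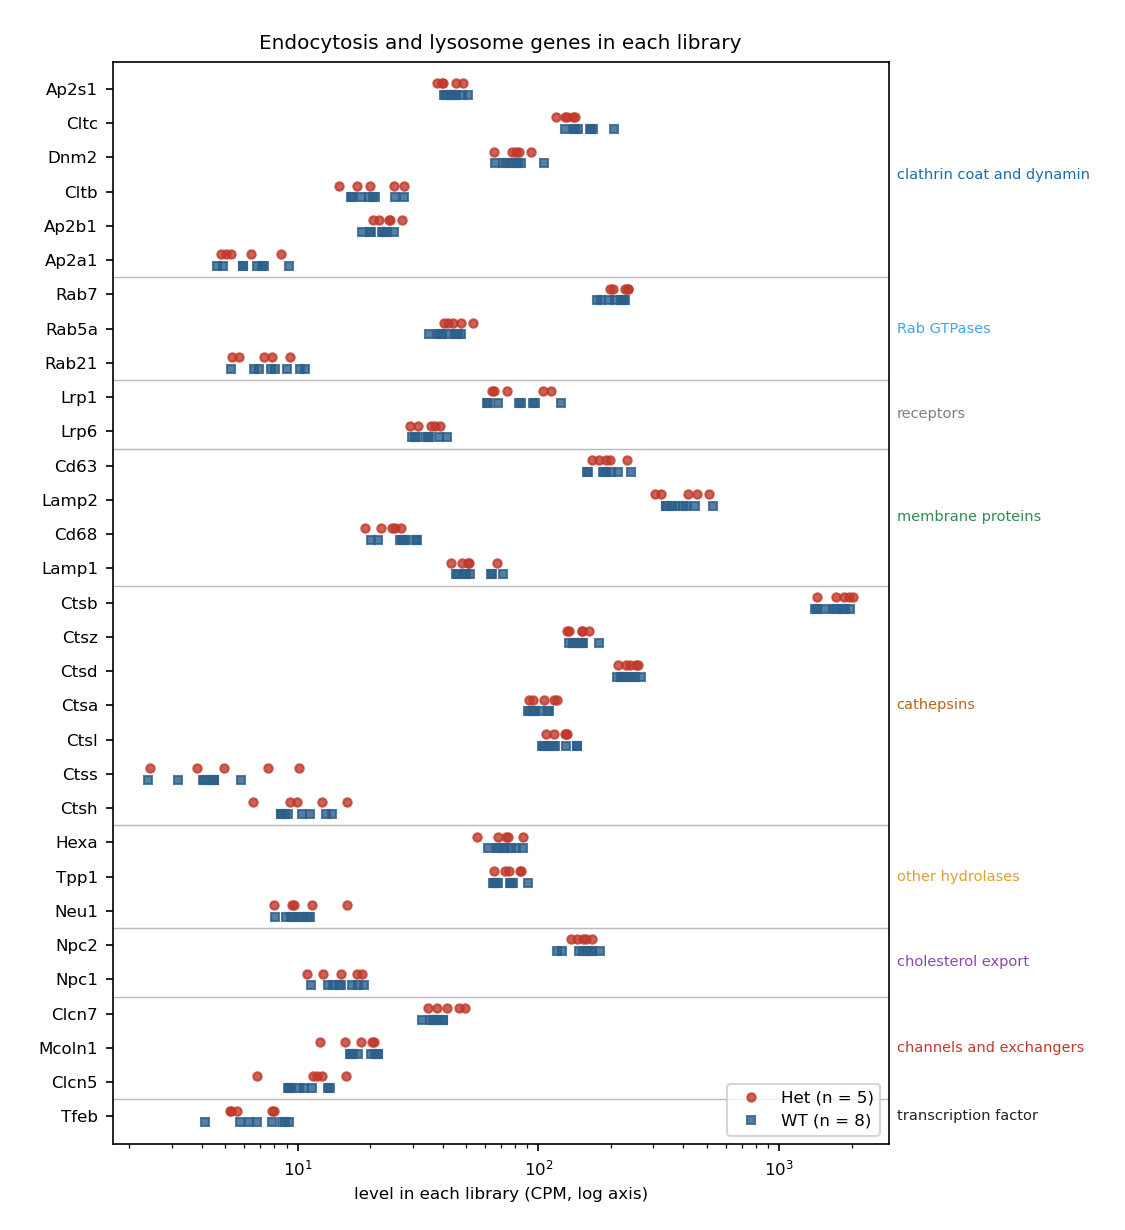
Level in each library (CPM, log axis) of the 31 tested genes, grouped by role, with 1 circle for each of 5 Het libraries above 1 square for each of 8 WT libraries. Circles and squares overlap for every gene, and the Het circles of Ctss spread more widely than its WT squares.

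Of the lysosomal membrane proteins, Cd63, a tetraspanin of late endosomes and lysosomes, had 199, 191, 178, 233 and 166 CPM in Het libraries, against a lowest of 159, a median of 189.7 and a highest of 242 CPM in WT libraries. All Het values lay inside the WT range. Lamp2, a heavily glycosylated protein of the lysosomal membrane (ENSMUSG00000016534, chrX:38401357-38456454, − strand), had 417, 304, 323, 509.97 and 458 CPM in Het libraries, against 338, 383 and 529.8 CPM in WT. Het 4-2 and 4-5 lay below the WT range, and the highest library of all was WT 5-1. Cd68, a LAMP family protein best known as a macrophage marker, had 24.6, 25.2, 22.3, 26.9 and 19.0 CPM in Het libraries, against 20.1, 27.4 and 31.3 CPM in WT. Each Het value was below the WT median, and 1, that of Het 5-6, was below the WT range.

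Log2 fold changes were 0.01 ± 0.12 for Cd63, 0.01 ± 0.14 for Lamp2 and −0.18 ± 0.12 for Cd68 (SE), and edgeR's adjusted p-values were 0.996, 0.991 and 0.805. Lamp1, the partner of Lamp2 whose promoter is shown above, had a log2 fold change of −0.08 ± 0.13. A pseudogene, Cd63-ps, was counted separately at a mean of 3.76 log2 CPM, against 7.58 log2 CPM for Cd63, and reads could have been split between them. Lamp1 shares 9.31% of its exon bases with Grtp1 on the other strand.

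Of the cathepsins, Ctsb, a cysteine protease (ENSMUSG00000021939, chr14:63122462-63145923, + strand), had the highest level of the set, with 2034, 1429, 1724, 1949 and 1854 CPM in Het libraries, against a lowest of 1407, a median of 1700.5 and a highest of 1966 CPM in WT libraries. Het 1-2 lay above the WT range and the other 4 inside it. Ctsz, a cysteine carboxypeptidase, had 152, 131.5, 151, 162 and 134 CPM in Het libraries, against 134, 149 and 179 CPM in WT. Het 4-2 lay just below the WT range, and WT 4-4 was the highest library.

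Ctss, a cysteine protease known from antigen-presenting cells (ENSMUSG00000038642, chr3:95526786-95556403, + strand), had 4.93, 7.502, 2.43, 10.1 and 3.83 CPM in Het libraries, against 2.38, 4.28 and 5.80 CPM in WT. Het 4-2 and 5-5 lay above every WT library while Het 4-5 stood next to the lowest of them. The Het libraries spread more widely, with 5.76 ± 3.06 CPM in Het and 4.12 ± 1.006 CPM in WT (SD, n = 5 and 8). Its log2 fold change, 0.48 ± 0.27 (SE), was the largest of the set in size and the least precise, with an edgeR adjusted p of 0.762 and an interval that allows a level in Het between 0.941 and 2.06 times that in WT. Without Het 5-5 its log2 fold change was 0.18.

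Ctsb and Ctsz had log2 fold changes of 0.10 ± 0.13 and −0.03 ± 0.09 (SE), with edgeR adjusted p-values of 0.903 and 0.973. The other cathepsins were Ctsa, a serine carboxypeptidase (0.09 ± 0.09), Ctsd, the chief aspartic protease of lysosomes (0.02 ± 0.09), Ctsh, an aminopeptidase (0.06 ± 0.18), and Ctsl, a cysteine endopeptidase (0.02 ± 0.11). Over the 7 cathepsins, 6 log2 fold changes were positive and 1 was negative, with a median of 0.06. Ctsd shares 34.4% of its exon bases with Gm49369 on the same strand and Ctsl shares 26.9% with the antisense Gm47123, and neither partner had enough counts to test. Smaller overlaps on the other strand touch Ctsb (12.8%, Fdft1) and Ctsa (10.5%, Pltp).

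Of the other hydrolases, Hexa, the α subunit of β-hexosaminidase, had 73.5, 74.8, 68.1, 86.3 and 55.7 CPM in Het libraries, against a lowest of 61.7, a median of 72.2 and a highest of 86.5 CPM in WT libraries. Het 5-6 lay under the WT range. Tpp1, a tripeptidyl peptidase, had 84.6, 65.3, 72.9, 83.8 and 75.7 CPM in Het libraries, against 64.9, 72.3 and 90.3 CPM in WT, with all Het values inside the WT range. Neu1, a sialidase, had 11.4, 9.44, 16.1, 8.00 and 9.63 CPM in Het libraries, against 8.08, 9.88 and 11.3 CPM in WT. Het 4-5 stood well above the WT range, Het 1-2 just above it and Het 5-5 just below. Log2 fold changes were −0.03 ± 0.11 for Hexa, 0.06 ± 0.10 for Tpp1 and 0.15 ± 0.15 for Neu1 (SE), and the edgeR adjusted p-values ran between 0.871 and 0.974.

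The 2 lipid carriers pass cholesterol out of the lysosome. Npc2, the soluble carrier, had 154, 137, 144, 166 and 158 CPM in Het libraries, against a lowest of 119, a median of 156 and a highest of 180.1 CPM in WT libraries. Npc1, the membrane protein that receives cholesterol from it, had 17.6, 11.0, 18.5, 15.1 and 12.8 CPM in Het libraries, against 11.3, 15.0 and 18.9 CPM in WT. Both genes overlapped almost fully between genotypes, with Het 4-2 alone falling under the WT range, and that for Npc1. Log2 fold changes were −0.00 ± 0.11 for Npc2 and −0.03 ± 0.14 for Npc1 (SE), with edgeR adjusted p-values of 0.999 and 0.981. Npc1 shares 4.52% of its exon bases with the more abundant Rmc1 on the other strand.

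Of the ion channels and exchangers, Clcn7, the chloride-proton exchanger of lysosomes (ENSMUSG00000036636, chr17:25133391-25162104, + strand), had 46.9, 38.0, 49.6, 41.7 and 34.7 CPM in Het libraries, against a lowest of 32.8, a median of 36.7 and a highest of 40.2 CPM in WT libraries. Het 1-2, 4-5 and 5-5 lay above every WT library and the other 2 within the WT range. The log2 fold change was 0.19 ± 0.10 (SE), with an edgeR adjusted p of 0.749, and the differences within prefixes 1, 4 and 5 were 0.25, 0.32 and 0.05. Mcoln1, a calcium channel of the lysosomal membrane, had 20.3, 12.4, 18.3, 15.8 and 20.8 CPM in Het libraries, against 16.5, 18.9 and 21.5 CPM in WT. Het 4-2 and 5-5 lay below the WT range, and the log2 fold change was −0.11 ± 0.13 (SE) with an edgeR adjusted p of 0.885. Clcn5, an endosomal exchanger, had a log2 fold change of 0.11 ± 0.17, and its lowest and highest libraries, 6.78 CPM in Het 1-2 and 15.8 CPM in Het 4-2, were both Het.

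Tfeb, the transcription factor (ENSMUSG00000023990, chr17:47737030-47792419, + strand), had 5.58, 7.80, 7.97, 5.21 and 5.28 CPM in Het libraries, against a lowest of 4.11, a median of 7.28 and a highest of 9.21 CPM in WT libraries. All Het values fell inside the WT range. Its log2 fold change was −0.17 ± 0.19 (SE), with an edgeR adjusted p of 0.886. The 7 members with the 8-base promoter element had log2 fold changes between −0.18 and 0.19 with a median of 0.02. The 20 tested members that have a promoter window without it ran between −0.26 and 0.48 with a median of 0.0025. The ranges overlap, and neither set had a member past the threshold.

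The fold changes of the set were small in size. Of the 31 members, 29 had an absolute log2 fold change under 0.2, where 65.8% of all genes did, and the median absolute value was 0.08, against 0.14 over all genes. The 95% interval lay within 0.5 log2 units either way for 28 members, where it did for 48.4% of all genes, and within 1 log2 unit for 30, Ctss being the exception. The median SE was 0.12 over members and 0.17 over all genes. The members were also more abundant, with a median of 14.4 RPKM (CPM per kilobase of merged exons) against 2.41 RPKM over all genes, and 25 of 31 lay above the median gene. The SD of log2 CPM within a genotype had a median of 0.19 over members and 0.30 over all genes.

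Set side by side per length, the mean RPKM over all 13 libraries placed 3 cathepsins at the head. Ctsb had 285 RPKM, more than 99.57% of the 16289 tested genes with an exon length, with libraries between 233 and 336 RPKM. Ctsz at 103 RPKM and Ctsd at 101 RPKM followed, and these neighbours did not differ beyond their spread, since Ctsz ran between 91.3 and 124 RPKM and Ctsd between 90.2 and 113 RPKM. Rab7 came next at 81.3 RPKM. Then stood Cd63 at 52.4 RPKM, Lamp2 at 41.9 RPKM and Hexa at 36.3 RPKM, with overlapping ranges between neighbours.

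The middle of the order held Ap2s1 (29.7 RPKM), Npc2 (27.9 RPKM), Ctsa (21.5 RPKM), Cd68 (20.3 RPKM), Lamp1 (20.2 RPKM), Ctsl (18.7 RPKM), Cltc (17.4 RPKM), Dnm2 (15.0 RPKM) and Tpp1 (14.4 RPKM). Below them Rab5a had 8.21 RPKM, Clcn7 7.37 RPKM, Lrp1 4.76 RPKM, Cltb 4.28 RPKM and Ctss 3.498 RPKM. Neu1, Ap2b1, Lrp6, Mcoln1 and Ctsh fell between 2.75 and 2.36 RPKM. The lowest were Rab21 (1.52 RPKM), Ap2a1 (1.46 RPKM), Npc1 (1.34 RPKM), Tfeb (1.21 RPKM), Clcn5 (0.979 RPKM) and the near-silent Lrp2. The order depends on the length used: Lamp2 stood at 41.9 RPKM by merged exons and at 111 RPKM by its longest transcript.

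**Figure D4:**
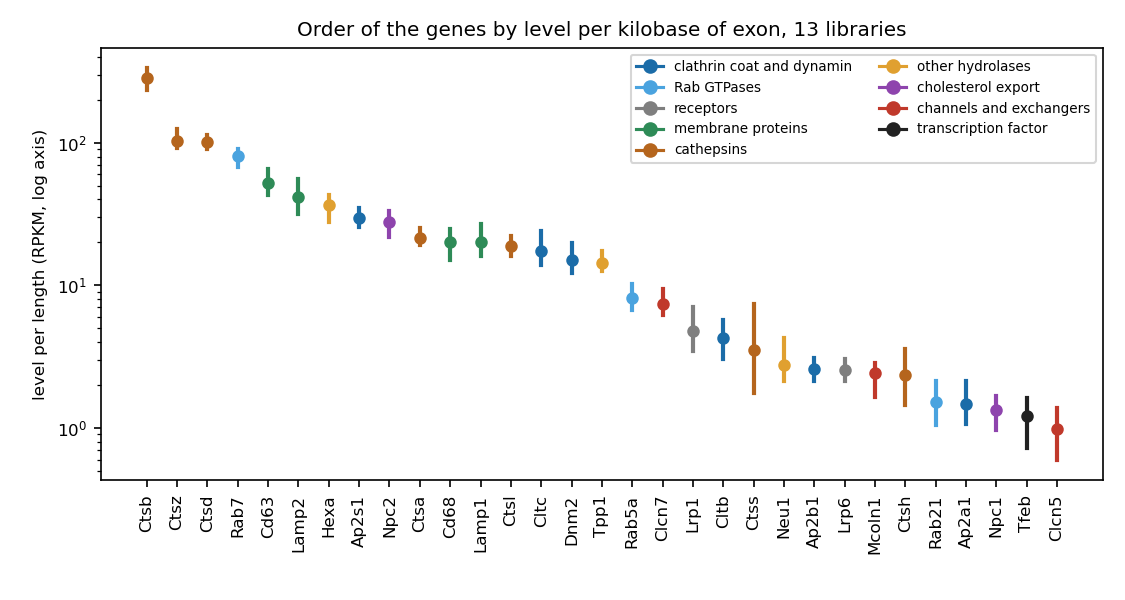
Level per length (RPKM over merged exons, log axis) of the 31 tested genes in order of their mean over 13 libraries (point), with a line between the lowest and the highest library and colours for roles. Ctsb leads with 285 RPKM and Clcn5 comes last with 0.979 RPKM.

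Within the set, the library prefix went with more of the spread than the genotype did. The prefix, which has 3 levels where genotype has 2, accounted for more of the variance of log2 CPM than the genotype in 28 of 31 members, where it did so in 76.9% of all genes, and 13 members kept 1 sign of the Het minus WT difference in all 3 prefixes, against 36.3% of all genes. The share of variance by prefix had a median of 32.9% over members and 22.9% over all genes, and the share by genotype 2.94% and 5.33%.

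Lamp2 showed the split most plainly, with 369 to 417 CPM in prefix 1, 304 to 357.4 CPM in prefix 4 and 446 to 529.8 CPM in prefix 5, 3 ranges that do not overlap, and 87.8% of its variance went with the prefix. Cltb moved the other way, with 18.2 to 21.0 CPM in prefix 1, 19.8 to 27.7 CPM in prefix 4 and 14.8 to 17.6 CPM in prefix 5 (79.2%). Lrp1 followed the order of Cltb, with 68.1 to 97.1 CPM in prefix 1, 82.9 to 125 CPM in prefix 4 and 60.9 to 65.3 CPM in prefix 5 (75.7%). Tfeb did likewise, with 5.58 to 8.88 CPM in prefix 1, 7.80 to 9.21 CPM in prefix 4 and 4.11 to 5.76 CPM in prefix 5 (72.7%). Cd68 and Npc1, by contrast, had 0.865% and 0.89% of their variance by prefix. Beside these, the mean log2 CPM of endothelial and pericyte markers was 4.59 in prefix 1, 4.64 in prefix 4 and 4.24 in prefix 5 (67% of variance by prefix), and that of macrophage markers moved little with it (2.13%). The part of these cells in the pattern was not tested.

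**Figure D5:**
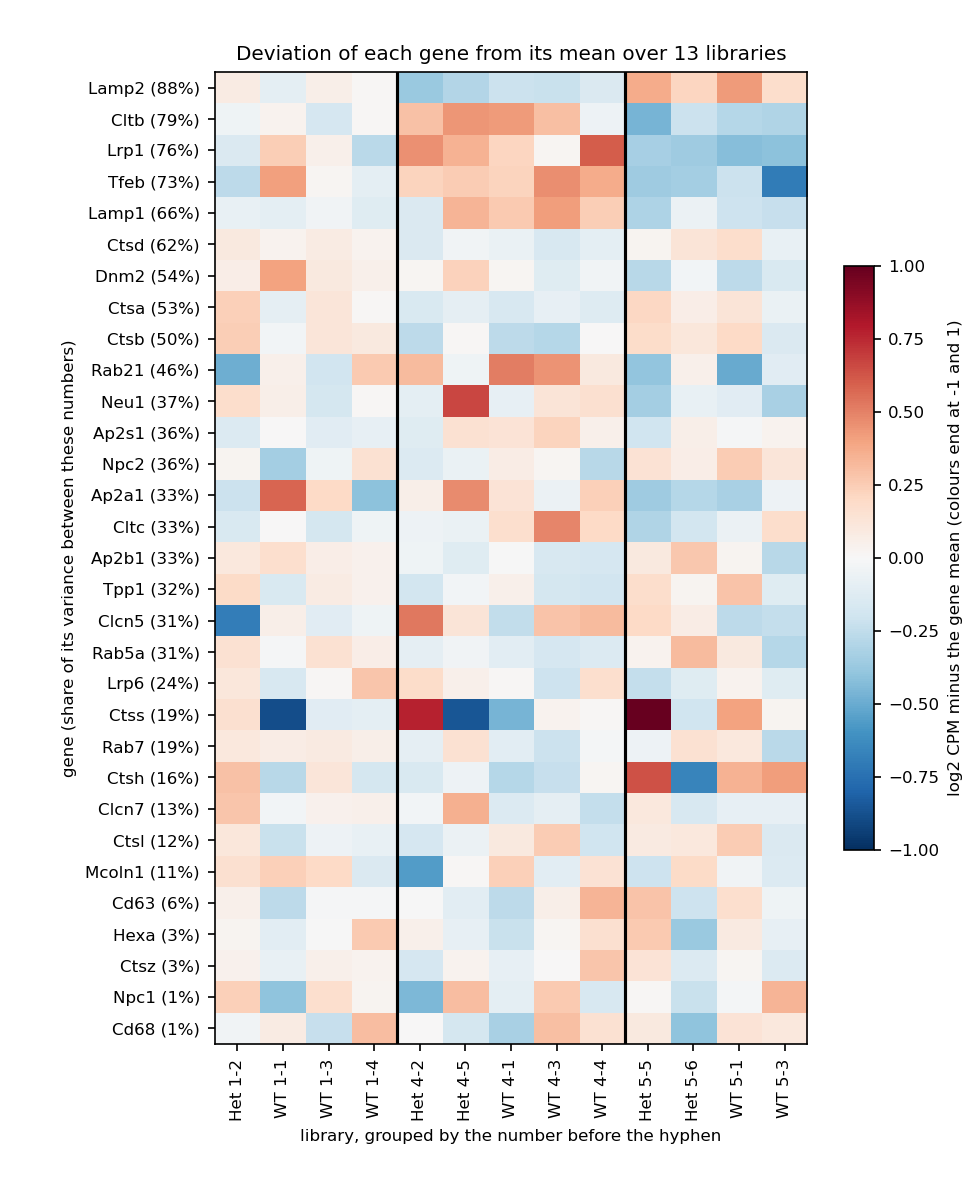
Log2 CPM of each tested gene (rows, with the share of variance between prefixes) minus its mean over 13 libraries (columns, grouped by prefix, Het before WT), in colour that ends at −1 and 1. Lamp2 is lowest in prefix 4 and highest in prefix 5, while Cltb, Lrp1 and Tfeb are lowest in prefix 5.

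The other genes of the same pathways were read from 6 lists holding 186 genes, of which 178 were tested. The lists were chosen with earlier results of these data known, so the share called in them is not a test of the lists. Of the 178, 1 was called, lower in Het, against 0.0429% of all genes, and log2 fold changes were positive for 97 and negative for 81, with a median of 0.01. That gene was Galns, a lysosomal sulfatase that trims keratan sulfate, with 8.88, 6.91, 7.12, 8.78 and 6.95 CPM in Het libraries, against a lowest of 11.3, a median of 12.96 and a highest of 15.6 CPM in WT libraries. Every Het library lay below every WT library. It fell by 0.75 ± 0.12 (SE) on the log2 scale, with an adjusted p of 0.0125 (edgeR). The size held with fewer libraries, at −0.84, −0.68 and −0.71 without prefix 1, 4 and 5 and between −0.80 and −0.71 with any 1 library left out. With these smaller sets the edgeR adjusted p was 0.216, 0.356 and 0.268 without prefix 1, 4 and 5, 0.0529 without Het 4-2 and 0.0606 without Het 5-6.

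The lysosomal hydrolase list, with Galns in it, had 38 of 38 genes tested, 23 with a positive and 15 with a negative log2 fold change, and a median of 0.05. In the lysosomal membrane and transport list 0 of 25 passed, and the smallest p-values belonged to Laptm5, a lysosomal protein of blood cells (−0.60 ± 0.17, edgeR adjusted p 0.32), and Tpcn2, an endolysosomal cation channel (0.27 ± 0.12, adjusted p 0.671). In the list of sorting factors and the TFEB family 0 of 30 passed, led by Rragc, a nutrient-sensing GTPase (0.25 ± 0.11), and Igf2r, the large mannose-phosphate receptor that sorts acid hydrolases (−0.53 ± 0.23). Laptm5 also stands in the macrophage marker list used here.

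Of the further clathrin coat genes, 0 of 28 passed, with Hip1, a clathrin-binding protein, at −0.25 ± 0.12 and Synj1, a phosphoinositide phosphatase that uncoats vesicles, at −0.17 ± 0.10. Of the endocytic receptors, 0 of 17 passed, with the receptor chaperone gene Lrpap1 at 0.23 ± 0.11, and 5 were positive and 12 negative. Of the endosomal Rab and sorting genes, 0 of 40 passed, with the ESCRT gene Hgs at −0.27 ± 0.12 and Rab4a, a recycling GTPase, at 0.26 ± 0.13, and 29 were positive and 11 negative. In each of these 5 lists with none past the edgeR threshold, between 1 and 3 genes had an unadjusted p under 0.05.

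The tissue carried enamel organ genes at high levels, with the matrix gene Ambn at 17.57 log2 CPM in Het and 17.58 log2 CPM in WT and Krt14 at 9.70 log2 CPM in Het and 9.63 log2 CPM in WT. It also held transcripts of marker genes of other cells that use lysosomal genes. Summed over 16 macrophage markers the level was 107 to 229 CPM in Het and 136 to 184 CPM in WT, and over 13 osteoclast markers 335 to 570.4 CPM in Het and 391 to 674 CPM in WT. The 15 maturation ameloblast markers summed to 29346 to 54261 CPM in Het and 43585 to 58537 CPM in WT, with 15 of 15 log2 fold changes negative, a median of −0.27 and 0 of 15 past the edgeR threshold (5 of 15 with an unadjusted p under 0.05, against 6.9% of all genes). Negative values were also the more frequent among osteoclast markers (11 of 13, median −0.14, 3 with an unadjusted p under 0.05), odontoblast, pulp and bone markers (10 of 10, median −0.16) and skeletal muscle markers (9 of 9, median −0.51), with 0 of each list past the edgeR threshold. The mean log2 CPM of the odontoblast, pulp and bone markers was nonetheless 6.39 ± 0.36 in Het and 6.37 ± 0.34 in WT (SD over libraries). That of the muscle markers was low and spread widely, at 0.84 ± 1.22 in Het and 1.06 ± 1.36 in WT, and was highest in WT 1-4 at 3.76. None of the markers in these lists was at 0 in all libraries. In bulk tissue, fewer cells of a type and less RNA per cell cannot be told apart.

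Members were then set against the mean log2 CPM of 4 marker lists (macrophage, osteoclast, maturation ameloblast and fibroblast) over the 13 libraries, 124 relations in all. None of the 124 passed an adjusted p of 0.05 by permutation test with Benjamini-Hochberg adjustment over all genes and the 4 lists, and none of the 65312 gene and list pairs did. Unadjusted, 15 of 124 had a permutation p under 0.05, where 6.8% of all pairs did. Some relations were negative. With macrophage markers Lamp1 had a rho of −0.802 (permutation p = 0.00141, adjusted p = 0.484) and an r of −0.441 (permutation p = 0.139, adjusted p = 0.849). Ap2s1 had a rho of −0.692 (permutation p = 0.0107, adjusted p = 0.63) and an r of −0.569 (permutation p = 0.0372, adjusted p = 0.704) with that list. Of the 124, 5 reached an r of 0.7 either way, and all 5 were positive. The signs depended on the setting. Without the 2 libraries farthest from the median of each list mean, macrophage markers had an r of −0.774 with Lamp1 and −0.739 with Cltb. Osteoclast markers then had −0.722 with Ap2a1, −0.718 with Dnm2, −0.71 with Neu1 and 0.726 with Ctss. Fibroblast markers had 0.7002 with Ctss. Centred by prefix, Cltb had −0.817 with fibroblast markers, beside the positive values given below.

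Over all 13 libraries Ctsh had the highest r, with macrophage markers (Pearson r = 0.865, permutation p = 0.00014, adjusted p = 0.208). Its Spearman rho was 0.852 (permutation p = 0.00045, adjusted p = 0.433). Centred by prefix the r was 0.891, and without Het 5-6 and Het 5-5, the libraries farthest from the median, it was 0.693. An r of 0.7 or more was seen in 1.25% of all genes with the macrophage list, in 1.39% with the osteoclast list and in 1.77% with the fibroblast list. Hexa followed with macrophage markers (r = 0.807, permutation p = 0.00104, adjusted p = 0.308; rho = 0.692, permutation p = 0.0109, adjusted p = 0.631), with an r of 0.828 centred by prefix and of 0.498 without the same 2 libraries. With osteoclast markers Hexa had an r of 0.791 (permutation p = 0.00117, adjusted p = 0.316) and a rho of 0.769 (permutation p = 0.00304, adjusted p = 0.528), with an r of 0.845 centred by prefix and of 0.618 without Het 5-6 and WT 4-4.

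With fibroblast markers Hexa had an r of 0.706 (permutation p = 0.00827, adjusted p = 0.498) and a rho of 0.626 (permutation p = 0.0245, adjusted p = 0.686). Cd63 had an r of 0.74 (permutation p = 0.0032, adjusted p = 0.387) and a rho of 0.709 (permutation p = 0.00848, adjusted p = 0.616) with that list. Centred by prefix the r was 0.826 for Hexa and 0.881 for Cd63, and without WT 4-4 and Het 5-6 it was 0.482 for Hexa and 0.602 for Cd63. Leaving out the farthest libraries also narrows the range of the marker levels. Het 5-6 had the lowest mean log2 CPM of the macrophage (2.16), osteoclast (2.82) and fibroblast (5.32) markers and the lowest Hexa level. The relations of Hexa with these lists are therefore not independent of each other. Ctss and Cd68, the members best known from macrophages, had an r of 0.597 (permutation p = 0.0364, adjusted p = 0.701) and of 0.562 (permutation p = 0.042, adjusted p = 0.716) with the macrophage list, and a rho of 0.72 (permutation p = 0.0073, adjusted p = 0.609) and of 0.418 (permutation p = 0.158, adjusted p = 0.875). With osteoclast markers Cd68 had an r of 0.6997 (permutation p = 0.00708, adjusted p = 0.48) and a rho of 0.731 (permutation p = 0.00614, adjusted p = 0.585). Without the 2 libraries farthest from each list's median, the r of Cd68 was 0.321 with macrophage markers and 0.537 with osteoclast markers. Ctss was highest in Het 5-5, the library where macrophage markers were also highest.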

How the data were processed

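Total RNA of enamel organs was made into 13 unstranded Nextera XT libraries and read as 75-base single reads in 2 runs, per the labels' protocols; the run of each library is not given. STAR 2.5.2a and build GRCm38 are named in the submitters' processing notes. The counting tool is not given there.

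Raw counts deposited by the authors cover 48733 features and entered every test. The 24 spike-in and transgene features (at most 0.000177% of a library) were left out. The authors also deposited a filtered count table (21223 features), used as an alternative, and a TMM-scaled signal per gene, CPM per the table's name, which equals the counts times 1 constant per library and was used only for this check. Columns name the genotype but no replicate number of the labels, so they were tied to genotypes only.

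Genes were filtered with filterByExpr (count minimum 10) and tested with edgeR's quasi-likelihood functions glmQLFit (robust) and glmQLFTest (version 4.0.16, R 4.3.3) after TMM scaling, with all 13 libraries and no covariate, with Benjamini-Hochberg adjustment over 16328 genes and a threshold of 0.05. The biological coefficient of variation was 0.227. SEs come from the F statistic and intervals cover 95%. DESeq2 1.42.0, limma 3.58.1 (voom), other scalings and filters, a prefix term and leaving out libraries or prefixes were alternatives. The edgeR step was tested on simulated counts. Levels are CPM, or log2 CPM with a prior count of 2. RPKM used merged exons of GENCODE M21 (GRCm38), with exon overlaps from the same annotation. Marker correlations used 100000 permutations, with p adjusted over all genes and 4 lists in place of the member pairs alone first planned.

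The members and the gene lists were chosen with earlier results of these data known. Values in each Het library, with the lowest, median and highest of WT, are given for the 2 highest members per length and the member of smallest p in each role. In each pathway list the genes past the threshold, or else the 2 of smallest p, are named (1 receptor gene is not reported here), and in the marker lists some of the genes of highest level. Cltb, Clcn5, Ctsh and the prefix pattern were singled out after their values were seen.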

Additional observations from a re-analysis of the deposited data

Results flagged for a closer look

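In 62 groups of libraries, each 1 member gene in 1 genotype, the highest and the lowest library were set against the rest of their group, and 1 stood far out. Ctsz, a lysosomal carboxypeptidase, had 7.48 log2 CPM in WT 4-4, and the next WT library had 7.26 log2 CPM. That gap was 0.542 of the whole WT range, past the limit of 0.526 for 8 libraries. Chance flags about 1 in 20 groups. WT 4-4 was also the library of highest summed level for the osteoclast, maturation ameloblast, odontoblast and bone, fibroblast and endothelial markers and the lysosomal hydrolase list, and of lowest level for secretory ameloblast markers, and their part in the Ctsz value was not tested. Without WT 4-4 the log2 fold change of Ctsz was 0.01, against −0.03 with it.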

How the results depend on the processing

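No member was called under any of the alternatives run (edgeR with other scalings or filters, DESeq2, limma-voom, a prefix term, or without a library or prefix). The Het and WT ranges overlapped for all tested members with TMM, RLE and upper-quartile factors and without each library or prefix. The number of all genes called, 14 in the main test, was 27 with no filter, 25 with at least 1 CPM in 5 libraries, 74 with DESeq2, 25 with voom sample weights, 30 with the prefix as a term, and 0, 1 and 2 without prefix 1, 4 and 5. It ran from 6 (without Het 4-2) to 22 when 1 library was left out. The pathway lists had 1 gene called (Galns), 0 without prefix 1, 4 or 5, and 0 to 1 with 1 library left out, while the log2 fold change of Galns stayed between −0.84 and −0.68 under all alternatives run. The marker relations at r of 0.7 numbered 5, then 8 with upper-quartile factors, 9 centred by prefix and 5 to 8 with 1 library left out. Of the members with a promoter window, 25% held the 8-base element, and 28.6% with the 6-base form. No paired analysis was possible because the columns carry no replicate number from the labels; the library prefix, whose meaning is not stated, was fitted as a term instead.

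Of 372 member fold changes under alternatives that keep or drop whole sets, 44 in 16 members changed sign, and of 403 with 1 library left out 53 in 15 members did. The largest of these was 0.11 in size in the first case and 0.12 in the second, and none was of a called member. On the log2 scale, Dnm2 was 0.0061 with no filter, 1.2e-05 with at least 1 CPM, 0.00309 in the authors' filtered table, 0.000804 with RLE factors, 0.000966 with DESeq2, 0.0021 with voom and 0.0605 with the prefix term. Npc2 was 0.00454, 0.00208, 0.00269, 0.0021, 0.00201 and 0.0104 under the first 6 of these. With no filter Lrp1 was 0.0011 and Lrp6 0.00039. With sample weights Cltb was −0.014, Npc1 0.014, Npc2 0.00059 and Clcn5 −0.023. With the prefix term Lamp2 was −0.037, Cd63 −0.012, Lrp1 0.026 and Lrp6 0.016.

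Without prefix 1, Lamp2 was −0.0065, Cd63 −0.057, Ctsh −0.059, Ctsl −0.063, Ap2a1 0.016, Dnm2 0.11 and Lrp1 0.028. Without prefix 4, Lamp1 was 0.0017, Ctsz 0.046, Cltb −0.091, Npc2 0.041 and Mcoln1 0.033. Without prefix 5, Lamp2 was −0.078, Cd63 −0.0028, Ctsl −0.0048, Ap2b1 −0.0077, Dnm2 0.034, Lrp1 0.081, Lrp6 0.093, Npc1 0.0896 and Npc2 0.0038. With 1 library left out, values ran from −0.081 to 0.10 for Lamp2, −0.068 to 0.059 for Cd63, −0.0047 to 0.062 for Ctsd, −0.12 to 0.20 for Ctsh, −0.0088 to 0.065 for Ctsl, −0.064 to 0.014 for Ctsz, −0.091 to 0.13 for Cltb and −0.053 to 0.067 for Dnm2. They ran from −0.14 to 0.096 for Lrp1, −0.055 to 0.053 for Lrp6, −0.10 to 0.049 for Hexa, −0.0297 to 0.24 for Neu1, −0.11 to 0.065 for Npc1, −0.044 to 0.039 for Npc2 and −0.015 to 0.26 for Clcn5. The cause of these changes was not tested. The RPKM order depended on the length used, as given for Lamp2. Depth limits Lrp2, which stayed at or under the floor of 3 counts in each library.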
